A study of Homo sapiens with 8 samples.

Results

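The genes described here encode the proteins of the cytosolic ribosome. They were taken from the deposited table by symbol: RPL or RPS followed by a number, with A, X or L allowed at the end, together with RPLP0, RPLP1, RPLP2 and RPSA, and with a mean of at least 10 normalized counts over the 8 libraries. The rule found 81 genes among 18133 rows, 49 of the large and 32 of the small subunit. They stood among 13885 genes that met the same minimum and were tested together. RNA came from DND41, a long-established human line of T-ALL (acute lymphoblastic leukemia of T cells) grown in RPMI with serum, in which doxycycline had switched on a short hairpin RNA for 72 h. All libraries received doxycycline: 2 carried the control hairpin (control A and C), 3 the SIRT1 construct sh1 (A, B and C) and 3 the SIRT1 construct sh3 (A, B and C). SIRT1 is an NAD-dependent deacetylase. The question asked of these genes is whether depleting it moves ribosomal protein transcripts, and whether the large and the small subunit move alike.

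What the numbers 1 and 3 denote is not stated, the cultures are of 1 cell line, and the labels do not say whether separately infected cultures were used. The p-values therefore cover only the scatter among these libraries, and that scatter may be technical. The library sh3 C is a SIRT1 hairpin by its title and genotype and a control by its description. It was kept with sh3, and the main counts that rest on it are also given without it. SIRT1 itself was at 1745 and 1920 normalized counts in control A and C, at 1259, 1312 and 1328 in sh1 A, B and C, and at 1099, 1217 and 1179 in sh3 A, B and C. All 6 hairpin libraries, sh3 C included, lay below both controls (log2 change -0.57 ± 0.063 SE, limma adjusted p = 0.00030). The deposited values are already scaled between libraries and sum to between 33087820 and 34072666 per library, so that the depth before scaling is not known. Of 7 T-lineage markers, 5 were analysed here and all 5 were above the minimum. Their summed level was 61562 to 65263 in the controls, 51322 to 54358 with sh1 and 43085 to 43858 with sh3. All 4 myeloid markers and the 3 erythroid markers analysed were below a mean of 10. The B-lineage sum, mostly CD79A, was 24453 to 26204 in the controls, 18016 to 19707 with sh1 and 24065 to 25479 with sh3. Among 4 adherent-cell markers only FN1 was above the minimum, and their sum was between 610.1 and 711 in the controls, 464 and 686 with sh1, and 208 and 250.2 with sh3. The part of these marker levels in the results was not tested.

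A human ribosome holds a large subunit, which forms peptide bonds, and a small subunit, which decodes the mRNA. Their proteins are needed in fixed proportion and the transcripts are among the most abundant in growing cells. Most of these mRNAs start with a C inside a run of pyrimidines, the 5' terminal oligopyrimidine (TOP) motif, through which mTOR and LARP1 control their translation and stability. MYC and NOTCH1, which drive many T-ALLs, are known to raise ribosome production. Mutation or loss of RPL5, RPL10, RPL11 and RPL22 has been described in T-ALL.

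The annotated starts show how uniform the group is in sequence. RefSeq promoter windows on GRCh38.p14 were matched for 64 of the 81 genes. The lines below give 10 bases before and 20 bases from the start of 4 members of paralog pairs and of 6 members on which the results turn, read 5' to 3' on the gene's strand, with the longest run of C or T in capitals. RPL6 has a window at each of 2 annotated starts.
RPS28 (chr19:8321486-8321515, + strand): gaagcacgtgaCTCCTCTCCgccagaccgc
RPL6, upstream start (chr12:112411423-112411452, - strand): gtaTCCTCagtgaatcagaaccagaaaaag
RPL6, downstream start (chr12:112409266-112409295, - strand): gacggcgcgtgcactgtgTTCCTggtcctg
RPL37A (chr2:216498834-216498863, + strand): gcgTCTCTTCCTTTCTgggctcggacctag
RPL31 (chr2:101002279-101002308, + strand): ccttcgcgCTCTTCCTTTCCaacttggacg
RPLP0 (chr12:120201092-120201121, - strand): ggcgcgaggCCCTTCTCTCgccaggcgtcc
RPS3A (chr4:151099618-151099647, + strand): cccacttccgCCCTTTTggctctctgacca
RPL36A (chrX:101391001-101391030, + strand): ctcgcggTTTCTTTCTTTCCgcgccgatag
RPL36AL (chr14:49620607-49620636, - strand): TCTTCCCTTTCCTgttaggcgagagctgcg
RPS27 (chr1:153990752-153990781, + strand): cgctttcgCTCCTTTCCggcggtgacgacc
RPS27L (chr15:63157458-63157487, - strand): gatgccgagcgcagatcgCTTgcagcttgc

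A start was counted as TOP-like where the annotated first base was C and at least 5 C or T in a row began there. By this count 46 of the 64 genes (71.9%) had a TOP-like start at 1 or more of their windows, against 5.14% of the 27305 genes of the promoter table. The 2 subunits were alike in this, with 28 of 39 large and 18 of 25 small subunit genes. Mitochondrial ribosomal protein genes had such a start in 8.70% of 69 cases, and 10 of 12 other genes listed for TOP mRNAs had one. RPL37A, RPL31, RPLP0, RPS3A, RPL36A and RPS27 count as TOP-like. RPS28 does not, because its annotated start is an A and its run of 9 begins at the next base. RPL36AL does not either, because its run of 13 begins 10 bases before the start and only 3 of its bases lie from the start on. RPL6 and RPS27L have no run of at least 5 at the start. Runs of at least 8 anywhere in the 30 bases were found in 84.4% of the members and 15.4% of all genes. CACGTG, the E-box that MYC and other factors can bind, which reads the same on both strands, was in the 300-base window of 4 of the 64 members (6.25%) and of 8.78% of all genes. It is visible in the printed bases of RPS28.

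**Figure D1:**
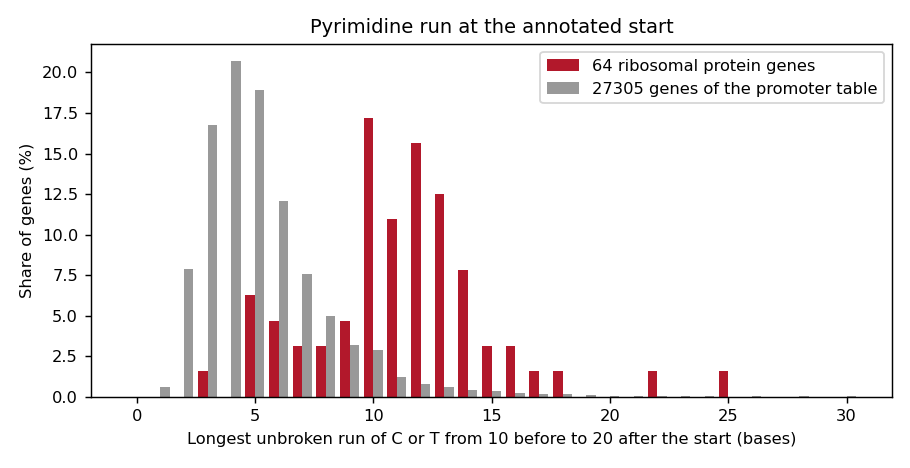
Share of genes (vertical axis, %) by the length in bases of the longest unbroken run of C or T from 10 bases before to 20 bases after the annotated start (horizontal axis), for 64 ribosomal protein genes (red) and the 27305 genes of the promoter table (grey). The median of the members is 11 bases and that of all genes 5 bases.

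Levels of different genes were compared per kilobase of coding sequence, in normalized counts averaged over the 8 libraries. On this scale the median of the 78 members with a mean of at least 1000 normalized counts was 46153. It was 45414 for the 47 large and 51353 for the 31 small subunit genes among them. RPL13A and RPS23 were at 107098 and 104162 per kilobase. RPL41, whose coding sequence has only 75 bases, was at 428484, a value that its short coding length raises. At the other end were RPL3L at 29.8, RPL39L at 89.2, RPS9 at 1868, RPS27L at 2906 and RPL9 at 2915 per kilobase. RPL3L, RPL39L and RPS27L are paralogs of core genes, with RPL3L best known from muscle. RPL9 and RPS9 encode core proteins, so that their rows stood far below those of their partners. In unscaled normalized counts 78 of the 81 genes had a mean of at least 1000, and RPL3L, RPL39L and RPS27L did not.

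The members took 5.68% and 5.92% of all normalized counts in control A and C. They took 4.69%, 5.38% and 5.66% in sh1 A, B and C, and 5.28%, 5.07% and 5.22% in sh3 A, B and C. The 3 sh3 libraries lay close together and below both controls, whereas sh1 A was the lowest of the 8 libraries and sh1 C came close to control A. The group means were 5.80% ± 0.168 (SD, n = 2) for control, 5.24% ± 0.502 (SD, n = 3) for sh1 and 5.19% ± 0.108 (SD, n = 3) for sh3. Relative to the controls the mean share stood at -9.62% with sh1 and at -10.5% with sh3, and at -4.83% with sh1 when sh1 A was left out. These are shares of a scaled total: less ribosomal protein mRNA per cell and more of other mRNAs cannot be told apart.

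Large and small subunit genes kept nearly the same proportion in all 8 libraries. The summed large subunit values were 1.56 and 1.58 times the small subunit sum in control A and C, 1.59, 1.52 and 1.51 times in sh1 A, B and C, and 1.54, 1.57 and 1.57 times in sh3 A, B and C. The lowest and the highest ratio both came from sh1 libraries, and the 3 groups overlapped. Large subunit genes took 3.46% and 3.62% of control A and C, 2.88% to 3.41% of the sh1 libraries and 3.10% to 3.20% of the sh3 libraries. Small subunit genes took 2.22% and 2.30% of the controls, 1.81% to 2.25% with sh1 and 1.97% to 2.08% with sh3.

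**Figure D2:**
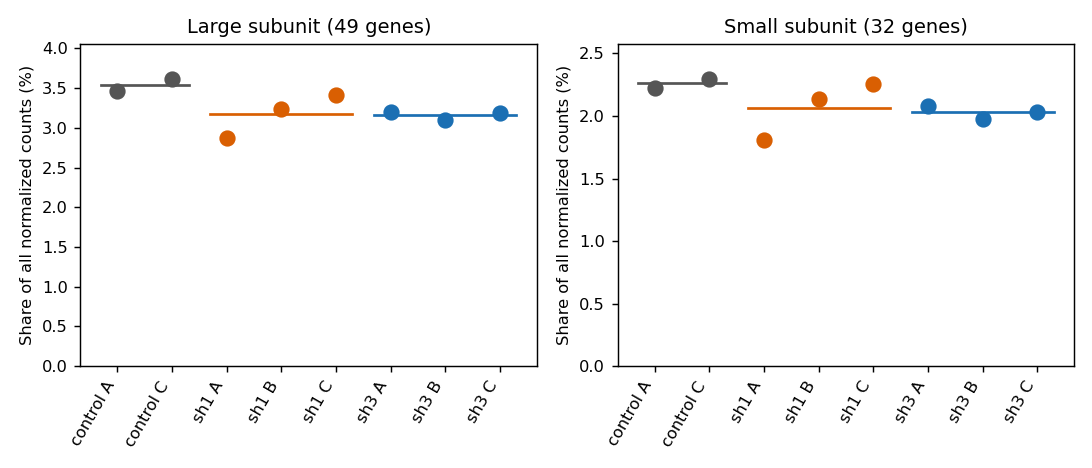
Share of all normalized counts (vertical axis, %) taken by the 49 large subunit genes (left) and the 32 small subunit genes (right) in each library, with points for libraries and lines for group means (control grey, sh1 orange, sh3 blue). Both panels show the same order of libraries at the ends, with control C highest (3.62% and 2.30%) and sh1 A lowest (2.88% and 1.81%).

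Gene by gene the members went the same way in a library. sh1 A held the lowest of the 8 values for 76 of the 81 genes, and control C the highest for 56, sh1 C for 17 and control A for 6. The median deviation of the members from their own 8-library mean was 0.10 and 0.17 on the log2 scale in control A and C, -0.21, 0.02 and 0.10 in sh1 A, B and C, and -0.01, -0.08 and -0.06 in sh3 A, B and C. Within groups these medians had a pooled SD of 0.11, which is somewhat smaller than the median changes given below. Large and small subunit genes shared the pattern, with medians in sh1 A of -0.20 and -0.23 and in control C of 0.17 and 0.16.

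**Figure D3:**
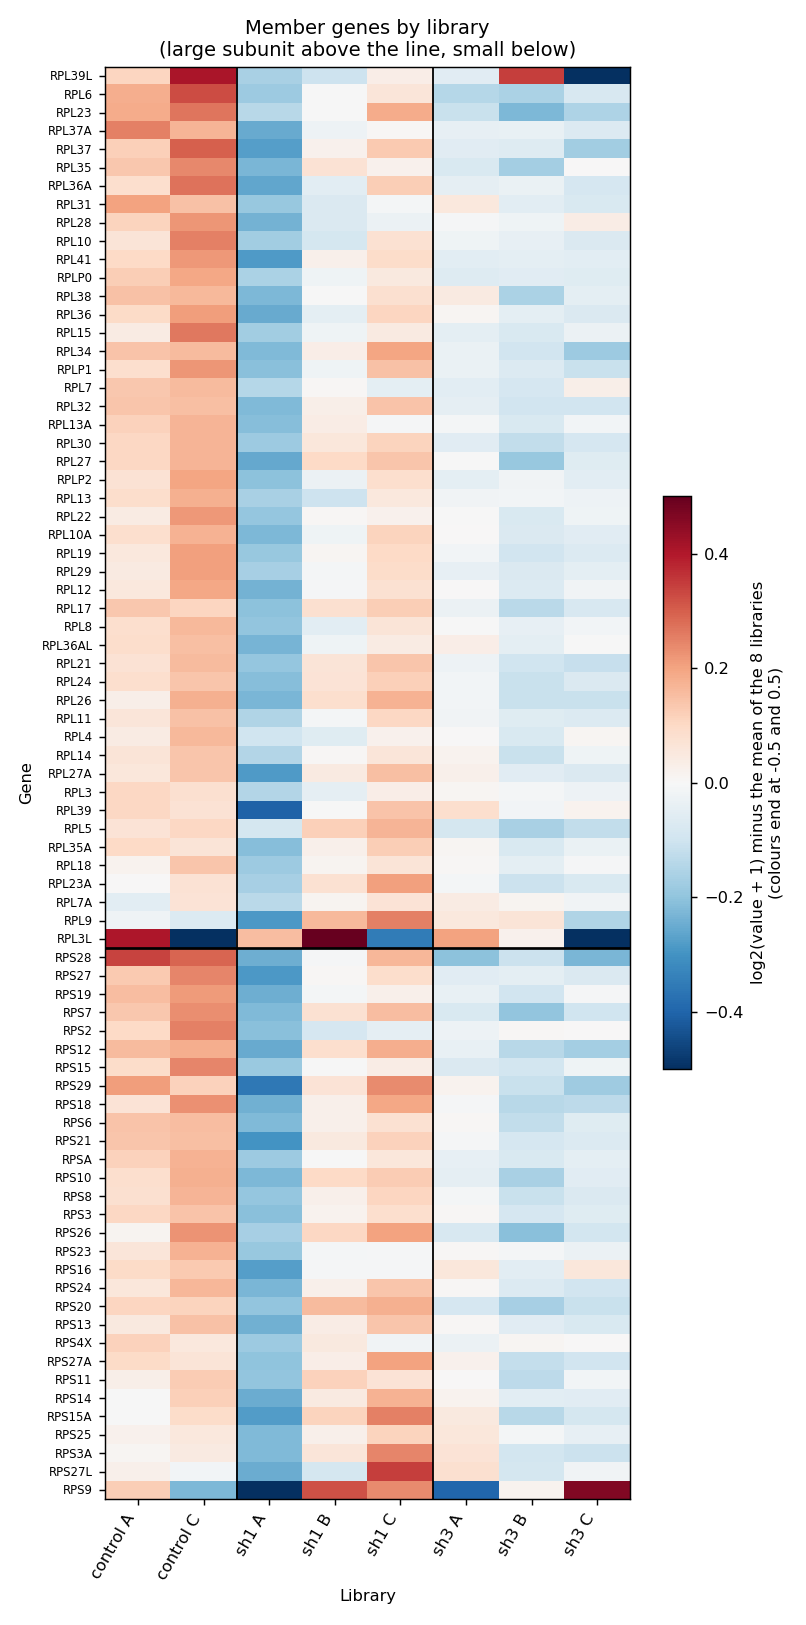
Each row is 1 of 78 member genes drawn and each column 1 library; the colour is log2(value + 1) minus the gene's mean over the 8 libraries, from blue at -0.5 or below to red at 0.5 or above, with large subunit genes above the black line and genes ordered by their change with the SIRT1 hairpins. The control columns are mostly red, the sh1 A column is blue for 77 of the 78 genes, and the noisy rows include RPL3L, RPL39L and RPS9.

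With both constructs in 1 comparison, the ribosomal protein genes that passed the test were all lower than in the controls. Of the 81 genes, 16 fell and 0 rose at an adjusted p below 0.05 (limma on log2(value + 1), adjusted over all 13885 genes), 10 of the large and 6 of the small subunit. Among all genes tested 6.19% were called lower. The members' changes were small, with a median of -0.17 (-11.3%) against 0.00 for all genes, and 78 of the 81 were below 0. Large and small subunit genes had medians of -0.18 and -0.17, a difference that was not tested. All 6 hairpin libraries lay below both controls for 33 members (19 large, 14 small), an order that 11.4% of all genes show. With sh3 C left out of that order the count was again 33, against 12.6% of all genes.

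The genes that passed included RPL6, RPL7, RPL13, RPL23, RPL28, RPL31, RPL35, RPL37A, RPLP0, RPS2, RPS15, RPS19, RPS28 and RPSA. Which genes pass depended on single libraries. Leaving out control C ended all 16 calls (12 members at an unadjusted p below 0.05), with 1.40% of all genes called lower. Without control A 7 members were called, 5 of the 16 and 2 others (3.64% of all genes), and without sh3 A or sh3 B 7 of the 16 were (4.49% and 4.70% of all genes). Without sh1 A 27 members were called lower (6.81% of all genes were), without sh1 C 44 (6.52%), and without sh3 C 13 (5.96%; median -0.18). The median was between -0.13 and -0.21 over the 8 omissions and -0.11 after quantile normalization.

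RPS28, a small protein near the mRNA exit, changed most. Its values were 12076 and 11669.9 normalized counts in control A and C, 8050.1, 9502 and 10708 in sh1 A, B and C, and 8270.3, 8857 and 8148 in sh3 A, B and C. Both controls lay above all 6 hairpin libraries, and sh1 C came closest to them. The change was -0.42 ± 0.083 (SE; -25.2%, adjusted p = 0.0083), made up of -0.50 ± 0.092 with sh3 (adjusted p = 0.0043) and -0.34 ± 0.092 with sh1, which missed the threshold (adjusted p = 0.0504). The gene lies at chr19:8321158-8323340 on the plus strand (GENCODE 29, GRCh38). The call with both constructs was lost without control A and without control C, with a variance prior that ignores the mean, and when every library was centred on the ribosomal protein genes (-0.25). The call with sh3 held under each alternative that was run, also under that centring (-0.31).

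RPL6, a protein of the large subunit that eukaryotes but not bacteria have, had the smallest adjusted p of the members. It stood at 33109 and 36548 in control A and C, at 25683, 29131 and 30390.5 in sh1 A, B and C, and at 26379.5, 26110.3 and 27577 in sh3 A, B and C. No hairpin library reached either control. The change was -0.34 ± 0.062 (-21.0%, adjusted p = 0.0056), and it passed with sh1 (-0.30, adjusted p = 0.0297) and with sh3 (-0.38, adjusted p = 0.0036). The call with both constructs was lost with a variance prior that ignores the mean and when every library was centred on the ribosomal protein genes (-0.17). The sh1 call was lost under both of these (-0.13 when centred), without sh1 B and with only the 2 groups fitted. The sh3 call was lost under that centring (-0.20). None of these RPL6 calls held without control C, which leaves 1 control, and the sh3 change was then -0.31.

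RPL37A, a zinc-binding protein of the large subunit, was at 22532 and 21258 in control A and C. The sh1 libraries A, B and C gave 15869, 18548 and 18992, and the sh3 libraries 18368, 18397 and 18006. The 5 hairpin libraries other than sh1 A were within a narrow range, and all 6 were below both controls. The gene fell by 0.28 ± 0.061 on the log2 scale (adjusted p = 0.013), and with each construct (sh1 -0.30, adjusted p = 0.026; sh3 -0.26, adjusted p = 0.022).

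RPS2, a small subunit protein near the mRNA entry, was at 32887 and 36547 in the controls A and C, at 26564, 28955 and 29724 with sh1 and at 30128, 30799.5 and 30697.5 with sh3. Here sh1 was the lower of the constructs, but the difference of 0.11 between them missed the threshold (adjusted p = 0.230). RPS2 fell by 0.24 ± 0.052 (adjusted p = 0.014), by 0.29 with sh1 (adjusted p = 0.017) and by 0.18 with sh3 (adjusted p = 0.049). RPL31, at the rim of the tunnel exit, was at 13917 and 13372 in the controls, at 10616, 11501 and 12003 with sh1 and at 12541, 11677 and 11471 with sh3, and again no libraries of the 2 arms overlapped. Its change was -0.23 ± 0.053 (adjusted p = 0.017). RPL7, at 52768 and 53552 in the controls, 43557 to 48269 with sh1 and 45306 to 49047 with sh3, fell by 0.19 ± 0.047 (adjusted p = 0.022). RPL6, RPL7, RPL31, RPL37A and RPS2 were the 5 members called in all 3 comparisons with the controls.

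With sh1 against the controls, 6 members fell and 0 rose: RPL6, RPL7, RPL28, RPL31, RPL37A and RPS2. The share of all genes called lower was 3.43%. The median member changed by -0.17 (large -0.18, small -0.16), and 76 of the 81 were below 0. RPL28, with 25294 and 27315 in control A and C and 19851, 22286 and 22928 in sh1 A, B and C, fell with sh1 (-0.28, adjusted p = 0.024). Its sh3 change was -0.17 (adjusted p = 0.086), and the 2 constructs differed by 0.12 (adjusted p = 0.217). All 3 sh1 libraries lay below both controls for 34 members, against 18.9% of all genes. Without sh1 A the median shrank to -0.07 with 5 members called, where 3.12% of all genes were called lower. Without sh1 B, sh1 C, control A and control C the numbers called were 2, 20, 3 and 0 (11 at an unadjusted p below 0.05 without control C), where 1.69%, 2.63%, 1.57% and 0.749% of all genes were called lower. After quantile normalization the median was -0.10.

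With sh3 against the same controls, 16 members fell and 0 rose, 9 of the large and 7 of the small subunit, where 9.19% of all genes were called lower. RPL23, which lies at the face toward the small subunit, was at 21644 and 22877 in control A and C and at 17601, 16282 and 17076 in sh3 A, B and C, and fell by 0.39 ± 0.078 (adjusted p = 0.0059). In sh1 A, B and C it was at 17266, 18983 and 21613, the last just below control A, and the change of -0.21 missed the threshold (adjusted p = 0.135), as did the difference between the constructs of -0.18 (adjusted p = 0.129). RPS7, of the small subunit, passed with sh3 at -0.31 (adjusted p = 0.037) and was at -0.18 (adjusted p = 0.271) with sh1. The median member changed by -0.19, large subunit genes by -0.18 and small subunit genes by -0.19. All 3 sh3 libraries lay below both controls for 70 of the 81 members (44 large, 26 small), and 25.1% of all genes show that order. For sh3 A and B alone the count was also 70, against 30.3% of all genes.

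The number of sh3 calls depended on the libraries that set the shared estimate of spread. Without sh1 A it was 56, 35 large and 21 small (10.7% of all genes were called lower), and without sh1 C 26 (9.62%), although neither omission alters the sh3 changes themselves. Without sh1 B, sh3 A, sh3 B, sh3 C, control A and control C it was 10, 4, 3, 7, 9 and 1, the last being RPS28. The shares of all genes called lower in those fits were 7.79%, 5.62%, 5.76%, 7.86%, 6.34% and 3.13%, so that without sh3 A, sh3 B or control C the members were called no more often than genes in general, and without sh3 C about as often (8.64% of the members). The median was -0.18 without sh3 C and -0.11 after quantile normalization.

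**Figure D4:**
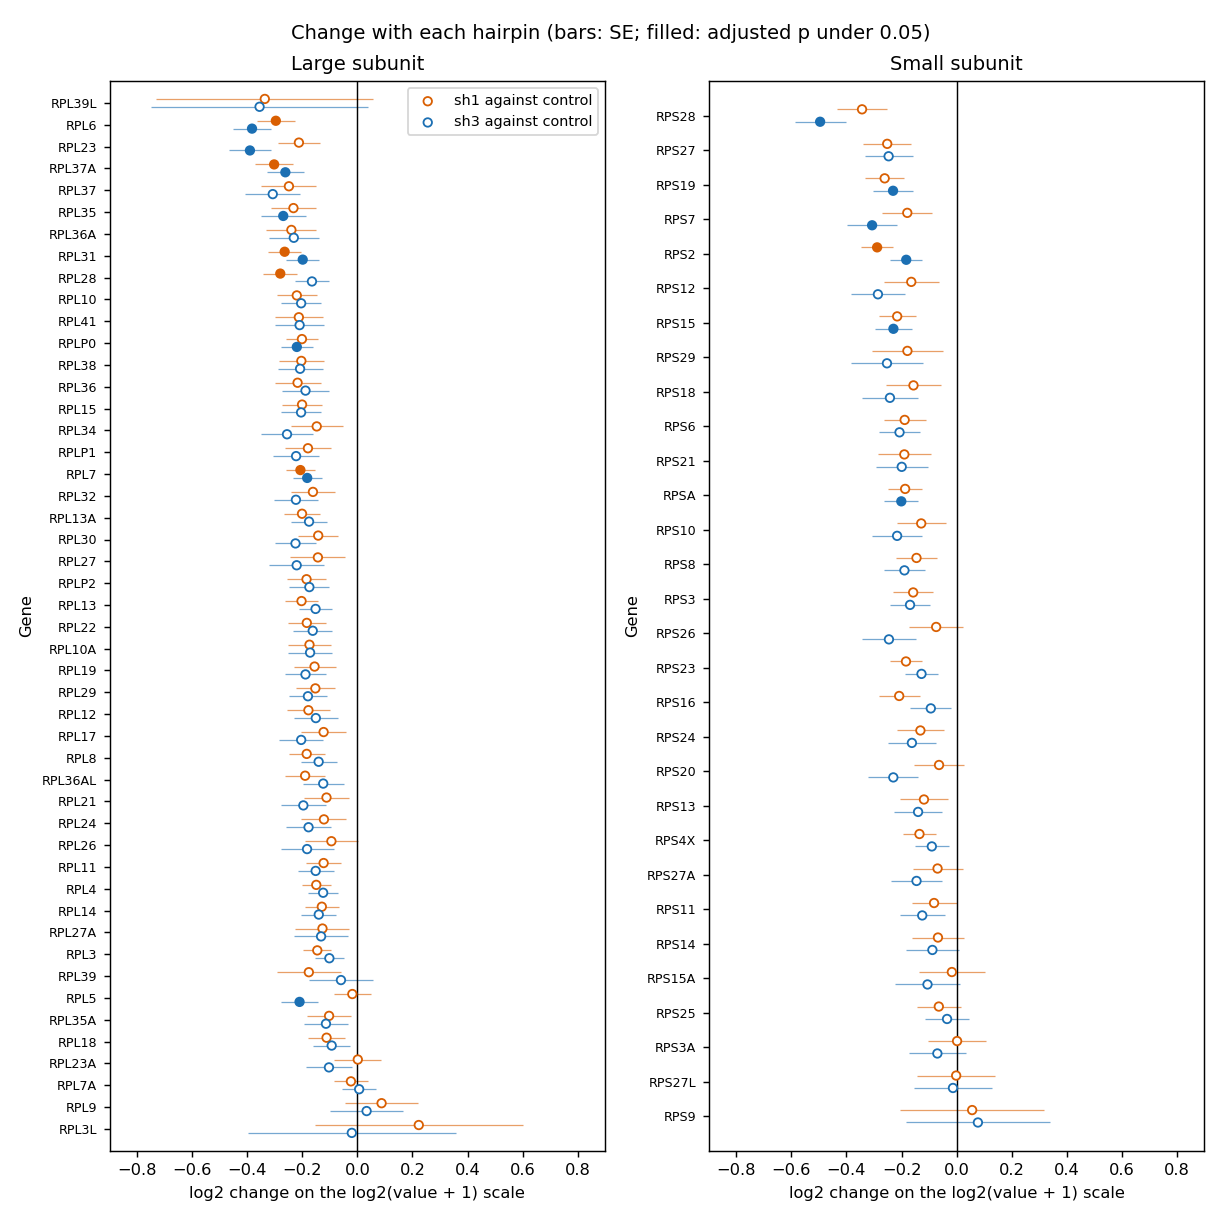
Log2 change on the log2(value + 1) scale against control (horizontal axis) for 48 large subunit genes (left) and 30 small subunit genes (right), with sh1 in orange and sh3 in blue; bars are SE and filled points have an adjusted p below 0.05. Nearly all points lie left of 0 and most between 0 and -0.4, the filled points are all on the left, and the widest bars belong to RPL39L, RPL3L and RPS9.

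When sh3 was set against sh1 directly, no member passed the test. limma called 0 of 81, with 2 at an unadjusted p below 0.05, while 11.4% of all genes differed between the constructs. The median difference was -0.01, -0.01 for large and -0.02 for small subunit genes, and the SE of a single gene's difference had a median of 0.071. Without sh1 A this comparison called 20 members lower with sh3 (11 large, 9 small; 6.16% of all genes were called lower), with a median of -0.11. RPL5 had the smallest adjusted p with all libraries. Its values of 19861, 22928 and 23771 in sh1 A, B and C enclosed the controls at 22128 and 22686, and sh3 A, B and C were lower at 19873, 18867 and 19380. The sh3 change was -0.21 ± 0.067 (adjusted p = 0.049), the sh1 change -0.02, and the difference of -0.19 had an adjusted p of 0.061.

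Of 10 members with known special roles, RPLP0 and RPSA passed with both constructs together. RPL5 and RPL11 form the 5S particle that can bind MDM2, and RPL11 was at -0.14 (adjusted p = 0.145). RPL10, which joins the large subunit late, went from 38813 and 44244 in the controls to 32885, 34954 and 39175 with sh1 and 36570, 36053 and 35297 with sh3, a difference of -0.21 that missed the threshold (adjusted p = 0.053). RPL22, which is dispensable for translation, was at -0.17 (adjusted p = 0.092). Of the stalk proteins, RPLP0 fell by 0.21 ± 0.051 (adjusted p = 0.021), and RPLP1 and RPLP2, which bind it as dimers and recruit elongation factors, were at -0.20 and -0.18 with adjusted p of 0.101 and 0.091. RPSA, also known as the laminin receptor, fell by 0.19 (adjusted p = 0.042). RPS6, the substrate of the S6 kinases, was at -0.20 (adjusted p = 0.078), and RPS27A, made as a fusion with ubiquitin, at -0.11 (adjusted p = 0.424).

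Of the 19 members that passed in at least 1 comparison, 11 were of the large and 8 of the small subunit, and the other 62 passed in none. Without sh3 C, 13 passed in at least 1 comparison (9 large, 4 small). The share of all genes that passed in at least 1 comparison was not counted, so these counts are descriptions only. Among the most abundant, RPL13A was at -0.19 (adjusted p = 0.059). RPS3A was at 47135 and 48288 in control A and C, at 40183, 48874 and 55489 in sh1 A, B and C and at 49159, 43958 and 43451 in sh3 A, B and C, so that both constructs enclosed the controls (-0.03, adjusted p = 0.853). RPL9 and RPS9, the low rows of core genes, were at 0.06 and 0.07 with SEs of 0.118 and 0.233. RPS9 ran from 731 in sh1 A to 1461 in sh3 C. The paralogs gave little information: RPL3L was between 23.5 and 54.9 and RPL39L between 8.63 and 18.1 normalized counts over the 8 libraries, with SEs of 0.338 and 0.352. RPS27L, a p53 target, was at -0.01 and RPS27 at -0.25, and RPL36AL was at -0.16 and RPL36A at -0.24, none of the 4 passing.

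Members with and without the TOP-like start had the same median change: -0.17 for the 46 genes with it and -0.17 for the 18 without it. The 4 genes with CACGTG had a median of -0.22 and the 60 without one -0.17. The members' change also had only weak relations across genes with coding length (Pearson r = 0.24) and with level (r = -0.26, both over 78 genes with a mean of at least 1000), given as descriptions since genes of 1 library are not independent.

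Genes tied to ribosomal proteins were looked at in lists of fixed membership, with both constructs together, against the 6.19% of all genes called lower. Counts of 1 or 2 in lists this short are given as descriptions. Of 5 ribosomal protein genes outside the naming rule, RPL7L1 fell (-0.15, adjusted p = 0.047), and RPL26L1, FAU and RPL22L1 were at -0.20, -0.16 and 0.01. Among 17 other TOP mRNAs, elongation and initiation factors for the most part, 1 fell and 0 rose (5.88%), with a median of -0.07. The one was HNRNPA1, at -0.15 ± 0.038 (adjusted p = 0.023). Of 13 chaperones and importers of ribosomal proteins, RRS1, which brings the 5S particle into the ribosome, fell (-0.23, adjusted p = 0.044), which is 7.69% of the list, and the median was 0.04. Of 11 regulators of translation 2 fell. EIF4EBP1, which blocks the cap-binding factor eIF4E when mTOR is inactive, was at 4418 and 4955 in control A and C, at 3170.0, 3515 and 3535 with sh1 and at 3609, 3700.4 and 4365 with sh3, all 6 below both controls (-0.37 ± 0.077, adjusted p = 0.011). EIF4EBP2 was at -0.18 (adjusted p = 0.018). LARP1 was at -0.09 and MTOR at -0.14, neither passing. The 77 mitochondrial ribosomal protein genes tested had 2 lower (2.60%), 3 higher and a median of -0.05.

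Near-identical copies make single rows uncertain. The table holds 160 rows named by symbol as pseudogenes of the members, of which 45 reached the minimum and 0 passed in either direction with both constructs together. With sh1, RPS2P5 was called lower (-0.26, adjusted p = 0.049), as was its parent RPS2. Reads can be split between RPS2 and RPS2P5 (mean 4432) or between RPL23A and RPL23AP42 (mean 6495). Adding each member's pseudogenes to it before the test left 15 of the 16 calls, RPL13 being the one lost.

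The pattern across libraries was not limited to the ribosome. Among other coding genes with an annotated transcript below 1000 bases (881 genes), the median deviation was -0.10 in sh1 A, 0.08 in sh1 C and 0.09 in control C, and the change with the SIRT1 hairpins -0.08. For the 3788 genes of 4000 bases or more the medians were 0.04 in sh1 A, -0.05 in control C and 0.04 for the change. The mitochondrial ribosomal protein genes were at -0.11 in sh1 A, 0.07 in sh1 C and 0.05 in control C, and the other TOP mRNAs at -0.11 in sh1 A and 0.06 in control C. The members were further out than each of these groups in sh1 A and in control C. Within the members, the 47 genes with a transcript below 1000 bases changed by a median of -0.17 and the 34 longer ones by -0.18. The part of the transcript length in the members' change was not tested beyond these values.

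**Figure D5:**
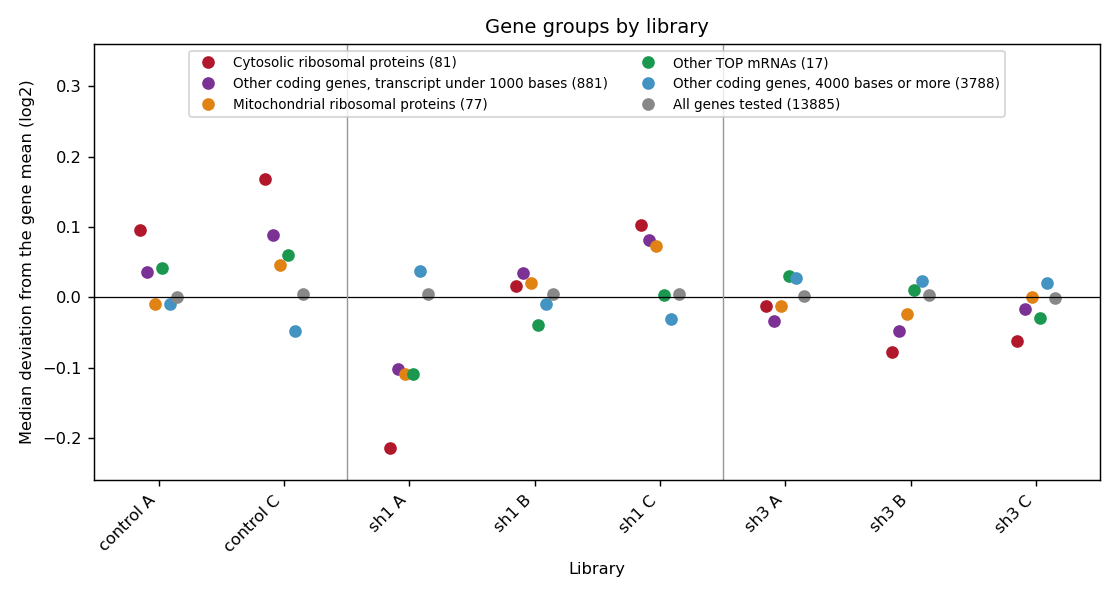
Median deviation of each gene group from the genes' own 8-library means (vertical axis, log2) in each library (horizontal axis), with 1 colour per group and the number of genes in the legend. The ribosomal protein genes run from -0.21 in sh1 A to 0.17 in control C, short coding genes lie on the same side in those libraries at a smaller size, and genes of 4000 bases or more lie on the other side there.

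When every library was centred on the ribosomal protein genes, so that each was compared with the others, 0 members differed from the controls with both constructs together (4 at an unadjusted p below 0.05), 0 with sh1 (2) and 1 with sh3 (4), RPS28, where 0.987%, 0.274% and 1.58% of all genes were called lower. The medians were then 0.00, -0.01 and -0.01. On this scale, the other genes called above did not pass against the rest of the ribosomal protein genes. The same shift was applied to all genes tested, which set the shared estimate of spread and the adjustment. The loss of calls therefore cannot show whether the members moved alike.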

How the data were processed

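The deposited table gives 1 signal value per gene symbol and library, normalized counts made by the authors. The submitters' processing notes name kallisto 0.44.0, DESeq and hg38. In the sources used here, the annotation and the way transcripts were summed to genes are not stated. Libraries were strand-specific, per the labels' protocols. The values are not whole reads, so no test for counts was used. Values were analysed as log2(value + 1) where a gene's average across the 8 libraries reached 10. Group means for the 3 groups were fitted once with limma 3.58.1 (R 4.3.3; 5 residual degrees of freedom, variance prior following the mean), and p-values were adjusted by Benjamini-Hochberg over all 13885 genes. Calls use an adjusted p below 0.05. Changes are on this scale and understate those of low genes. The script was tested on simulated data.

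The members and lists were chosen with earlier results of these data known. Genes named were SIRT1, members called in any comparison, those with the largest changes, the 3 most and 3 least abundant of each subunit, paralogs ending in L, and RPL5, RPL10, RPL11, RPL22, RPS6, RPSA, RPLP0, RPLP1, RPLP2 and RPS27A; members described outside the rule (RPL36A, RPL41, RPS27) were picked with their values in view. The 8 listed snoRNA host RNAs and a control with the letter B were not analysed here. A few members and 1 list gene enter the fit and the counts but are not reported here by name or in the gene-level figures. Coordinates are from GENCODE 29 (GRCh38) and start windows from RefSeq (GRCh38.p14). Alternatives changed the pseudocount, minimum, variance prior, scaling, pseudogene handling, replicate block, groups fitted and libraries; 2 were added after seeing the data, centring on the members and leaving out sh1 A and control C together.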

Additional observations from a re-analysis of the deposited data

Results flagged for a closer look

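A test of the difference between the constructs called 2 genes of the lists tied to ribosomal proteins, neither of them a ribosomal protein gene. They were 1 of 17 other TOP mRNAs and 1 of 11 regulators of translation. The lists of 5 ribosomal protein genes outside the rule, 13 chaperones and importers and 77 mitochondrial ribosomal protein genes had 0. Among all genes tested 11.4% were called, so that the lists do not stand out by these 2 calls. EIF2S3, a subunit of the initiation factor that carries the initiator tRNA, was higher with sh3 than with sh1 by 0.15 on the log2 scale (limma adjusted p = 0.041). Its values were 8418, 8287 and 7885 in sh1 A, B and C, 9195, 9267 and 8849 in sh3 A, B and C, and 8338 and 8004 in control A and C. RPS6KB2, a kinase of the ribosomal protein RPS6, was lower with sh3 than with sh1 (-0.19, adjusted p = 0.021), with 2395, 2488 and 2456 in sh1 A, B and C, 2081, 2157 and 2180.3 in sh3 A, B and C, and 2372 and 2403 in control A and C. In both genes the 3 libraries of each construct did not overlap.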

How the results depend on the processing

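Both the count of members called and their median depended on the processing. After quantile normalization the medians were -0.11, -0.099 and -0.11 (both constructs, sh1, sh3), against -0.17, -0.17 and -0.19. The shares in brackets are those of all genes called lower. For both constructs against control the count was 16. It became 0 with a variance prior that ignores the mean (2.93%), and the cause was not tested. It was 10 after quantile normalization (6.12%) and 0 when centred on the members (0.987%). Omitting 1 hairpin library at a time gave 7 to 44 (4.49% to 6.81%). Omissions of a control, which leave 1 control, are described above. For sh1 the count was 6 and became 10 with a mean of at least 50 (4.38%). It was 0 without the trend in the prior (1.18%), with only the 2 groups in the fit (1.92%) and when centred on the members (0.274%). Single omissions of hairpin libraries gave 2 to 20 (1.69% to 3.12%). Without sh1 A and control C together, which leaves 1 control, the sh1 median was -0.039. For sh3 the count was 16 and became 2 without the trend (5.68%) and 3 after quantile normalization (8.89%). With only the 2 groups fitted it was 54 (10.0%), and when centred on the members it was 1 (1.58%). Single omissions of hairpin libraries gave 3 to 56 (5.62% to 10.7%). Between sh3 and sh1 the count was 0, where 11.4% of all genes were called in either direction. After quantile normalization it was 2, with 1 lower and 1 higher with sh3. In that fit 11.5% of all genes were called in either direction, so that the members were called less often than genes in general. The count was 22 without sh1 A and control C, all lower with sh3 (6.11%), and single omissions gave 0 to 20 (3.29% to 6.16%). Centred on the members, the medians were 0.00070, -0.0096 and -0.0056, as that scaling sets them near 0, and RPL7 with sh3 turned to 0.00051.

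With the letter as a replicate block, 15, 5 and 16 members were called lower than the controls with both constructs, sh1 and sh3. Of all genes 4.82%, 2.32% and 7.61% were called lower. Between sh3 and sh1, 0 members were called, against 10.8% of all genes in either direction. The medians in the 4 comparisons were -0.17, -0.18, -0.19 and -0.01. After each gene's group mean was subtracted, libraries sharing a letter correlated between -0.06 and 0.06 over all genes tested. Over the members these correlations ran from -0.07 to 0.54, and those of libraries with different letters from -0.77 to 0.77. With 2 controls, the deviations of control A and C from their mean are equal and opposite. Each correlation with control A therefore recurs with control C at the reversed sign, which makes the last range symmetric. The letters are not treated as pairs in the main fit. Low genes such as RPL3L and RPL39L rest on few counts.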
